A study of Mus musculus with 6 samples.

Results

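Interferon-stimulated genes and the genes of MHC class I antigen presentation were followed in primary mouse hepatocytes, as 39 named genes out of the 25184 in the deposited count table. The 39 genes were taken by name, with earlier results of these data known. All of them were counted in all 6 libraries, with at least 116 counts each. Poly(A) RNA was sequenced from hepatocytes of chow-fed mice that had been isolated from the left lateral lobe by enzymatic digestion and a density gradient and then kept overnight on collagen in medium with serum. The controls were Sucnr1 fl/fl mice, with floxed alleles of the gene of the succinate receptor and without Cre (3 libraries). The Hep-Sucnr1 KO mice carried the same floxed alleles and Alb-Cre+/- on a C57BL6J background (3 libraries). Cre is driven by the albumin promoter, so other liver cells that came along with the hepatocytes keep Sucnr1. RNA was extracted on 2 days, with 1 library of each genotype on day 1 (replicate 1 of Sucnr1 fl/fl and 3 of Hep-Sucnr1 KO) and 2 of each genotype on day 2 (replicates 2 and 3 of Sucnr1 fl/fl, 4 and 5 of Hep-Sucnr1 KO). The age and sex of these mice were not given in the sources used here. Library totals lay between 30504248 and 38770694 counts, and levels are given as CPM (counts per 1000000 of the library total, scaled with TMM factors). The library index numbers fell into separate series, 1 with Sucnr1 fl/fl replicates 1 and 2 and the other with the remaining 4 libraries, so index series and genotype were partly confounded. Sucnr1 itself stood at 6.71, 3.55 and 3.40 CPM in the controls and at 2.66, 0.827 and 0.152 CPM in the knockout, and the genotypes did not overlap. Wherever 3 values are given for a genotype, they follow the replicate number, so the first of each genotype is its day 1 library.

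Cells answer interferons through receptors coupled to JAK kinases. Type I and type III interferons activate a complex with STAT2 and IRF9 that binds the interferon-stimulated response element (ISRE) in promoters, whereas interferon gamma works mainly at GAS elements, with IRF1 as an early target. The induced genes encode sensors of viral RNA and DNA, antiviral effectors, GTPases that act on the vacuoles of intracellular pathogens, and the machinery that loads peptides on MHC class I, which NLRC5 switches on. Hepatocytes respond to interferons, and Kupffer cells and other resident immune cells of the liver are sources of them.

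Promoter stretches that carry the ISRE are shown first, because type I and type III interferons act through this element. RefSeq promoter windows (GRCm38.p6, 250 bases before to 50 after the start of each gene) were found for 32 of the 39 genes. Windows were searched for the ISRE core GAAANNGAAA and its reverse complement TTTCNNTTTC, and for the GAS core TTCNNNGAA, which is its own reverse complement. An ISRE core was present in 16 of the 32 windows (50%), compared with 3.99% of the windows of 27025 genes. A GAS core was present in 9 of the 32 (28.1%), compared with 9.55% of all windows, and overlapping copies were counted once per gene. Of the 16 genes with an ISRE core, 12 are shown. In Ifih1 and Ddx58 the core lay only after the start, and the stretches of Gbp2 and Irgm1 overlapped annotated exons by 24 and 40 bases. Each stretch below reads 5′ to 3′ on the strand of the gene, with the matched letters in capitals.
Isg15: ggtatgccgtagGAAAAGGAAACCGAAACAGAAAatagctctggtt
Ifit1: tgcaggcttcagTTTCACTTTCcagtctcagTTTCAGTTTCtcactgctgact
Ifit3: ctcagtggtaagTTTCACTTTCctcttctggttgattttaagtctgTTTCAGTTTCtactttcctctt
Rsad2: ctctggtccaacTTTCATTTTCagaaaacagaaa
Oas1a: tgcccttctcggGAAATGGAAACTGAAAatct
Gbp3: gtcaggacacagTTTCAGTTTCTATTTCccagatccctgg
Gbp7: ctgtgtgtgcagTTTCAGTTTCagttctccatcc
Igtp: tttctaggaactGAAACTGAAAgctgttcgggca
Irgm2: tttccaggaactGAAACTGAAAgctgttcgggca
Bst2: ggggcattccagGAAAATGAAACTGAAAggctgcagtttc
Stat2: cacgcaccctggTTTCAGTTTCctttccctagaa
B2m: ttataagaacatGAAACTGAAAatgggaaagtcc

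The Isg15 stretch lay at chr4:156200863-156200908 on the minus strand and held 3 overlapping copies of the core, the first beginning 78 bases before the start. Ifit1 (chr19:34640773-34640825, plus strand) and Ifit3 (chr19:34583361-34583428, plus strand) each held 2 separate copies. The stretches of Igtp (chr11:58199510-58199543) and Irgm2 (chr11:58214901-58214934), both on the plus strand, were identical at 33 of 34 bases. The others lay at chr12:26456551-26456584 (Rsad2, minus strand), chr5:120907526-120907557 (Oas1a, minus), chr3:142559987-142560026 (Gbp3, plus), chr3:142530271-142530304 (Gbp7, plus), chr8:71537575-71537614 (Bst2, minus), chr10:128270264-128270297 (Stat2, plus) and chr2:122147536-122147569 (B2m, plus). The 12 stretches lay outside annotated exons, apart from the last base of that of Gbp3. In GENCODE M21, the transcripts of Stat2 and Irgm2 begin outside their RefSeq windows. A match describes the letters only, and no match says nothing about whether a factor binds.

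Per transcript length and on the mean of the 6 libraries, the presenting chains of MHC class I were the most abundant of the 39. B2m, the light chain of MHC class I, stood at 2727 ± 213 TPM (transcripts per 1000000, mean ± SD over 6 libraries), followed by the heavy chain genes H2-K1 at 979 ± 120.2 TPM and H2-D1 at 761 ± 90.7 TPM. Next came Isg15, a ubiquitin-like modifier, at 669.9 ± 367 TPM, Rsad2, which encodes the antiviral enzyme viperin, at 444 ± 271 TPM, and the viral RNA binding Ifit3 and Ifit1 at 414 ± 271 and 375 ± 218 TPM. These 4 genes did not differ from their neighbours in the order beyond their spread. The lowest were Ifi44 at 5.46 ± 2.54 TPM, Oasl2 at 5.58 ± 3.43 TPM and Nlrc5 at 5.89 ± 1.77 TPM. The spread was uneven, since the highest library exceeded the lowest by 1.24 times for Ifi27 and 1.45 times for B2m, but by 9.63 times for Rsad2, 14.1 times for Ifit3 and 24.7 times for Ifit2.

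**Figure D1:**
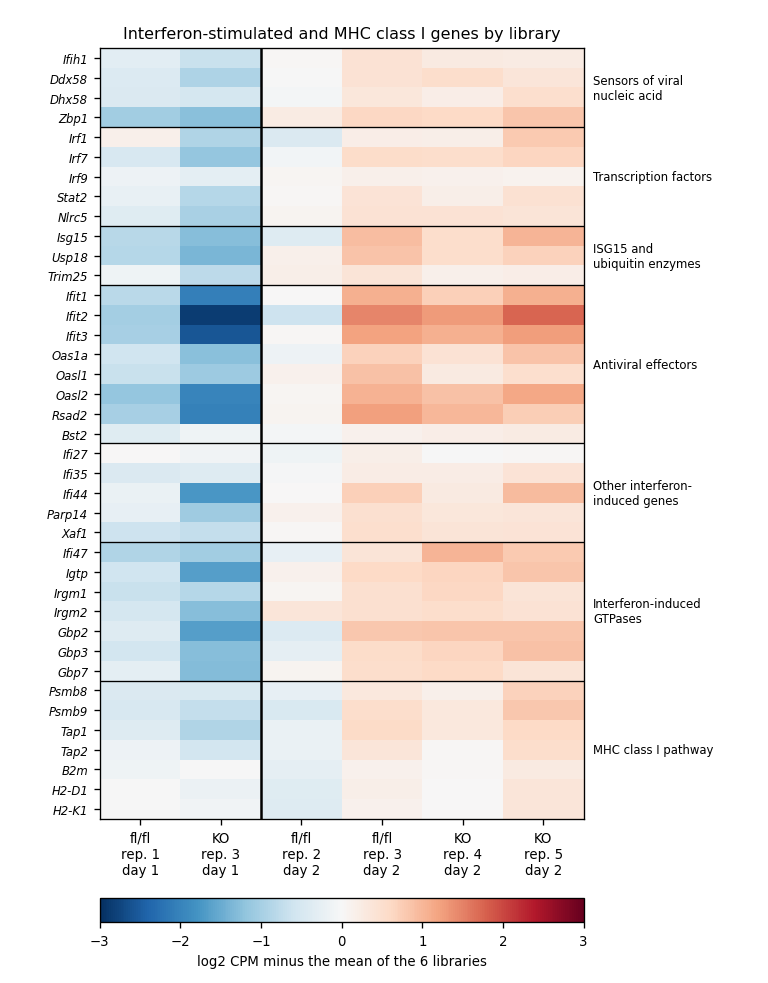
Level of each of the 39 genes (rows, by role) in each library (columns, day 1 left of the thick line), as log2 CPM minus the mean of the 6 libraries. Hep-Sucnr1 KO replicate 3 was the lowest library for 33 of the 39 genes, and the highest library of every gene was among the 3 on the right.

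The first question was whether hepatocytes without Sucnr1 differed from controls in these genes. None of the 39 passed the threshold for genotype. The deleted gene Sucnr1 did not pass it in edgeR either (log2 fold change −2.23, SE 0.54, edgeR FDR 0.998). DESeq2 called Sucnr1 (adjusted p 0.0328). The edgeR count of 0 therefore does not show that the 39 genes were unchanged. With extraction day in the model, 17 of the 39 genes were higher in the knockout and 22 were lower, and the median log2 fold change was −0.02 compared with 0.00 over all 15105 genes tested. After Benjamini-Hochberg adjustment of edgeR's quasi-likelihood test, 0 of the 39 had an FDR below 0.05, as did 0% of all genes, and DESeq2 also called 0 of the 39. Before adjustment, 0 of the 39 and 3.73% of all genes had a p below 0.05. The genotypes overlapped for every one of the 39, whereas they did not overlap for 10.6% of all genes. The SE of these differences ran from 0.10 for Irf9 to 0.70 for Ifit2 on the log2 scale. Which genes stood above or below 0 turned on single libraries. Without Hep-Sucnr1 KO replicate 3 or without Sucnr1 fl/fl replicate 1, the day term absorbs the day 1 library that remains. Both fits thus compare the genotypes in the day 2 libraries alone and are not separate checks. In each, 36 of the 39 were higher in the knockout, with a median of 0.22. Without Sucnr1 fl/fl replicate 2, 5 were higher, with a median of −0.27, and 4 had an unadjusted p below 0.05, compared with 3.55% of all genes. Without Hep-Sucnr1 KO replicate 5, 11 were higher, and without Sucnr1 fl/fl replicate 3, 25.

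The median fitted genotype difference of the role groups lay between −0.13 and 0.17, and every group held genes of both signs, which partly cancel in a median. The group medians on the log2 scale were 0.05 over the 4 sensors, −0.04 over the 5 transcription factors, −0.13 over the 3 genes of the ISG15 system, −0.11 over the 8 antiviral effectors, −0.05 over the 5 other induced genes, −0.05 over the 7 GTPases and 0.17 over the 7 genes of the MHC class I pathway. The smallest unadjusted p values were those of Ifi47, a GTPase of the IRG family (log2 fold change 0.49, SE 0.25), and Trim25, a ubiquitin ligase that acts on RIG-I (−0.29, SE 0.15), at 0.090 and 0.091 with an FDR of 0.998 each. Ifi47 stood at 48.6, 76.7 and 117 CPM in the controls and at 43.7, 183 and 156 CPM in the knockout. The day 2 knockout libraries were above both day 2 controls, but the day 1 knockout library was the lowest of all. Trim25 stood at 117, 143 and 167 CPM in the controls and at 74.2, 141 and 146 CPM in the knockout, with the genotypes overlapping.

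**Figure D2:**
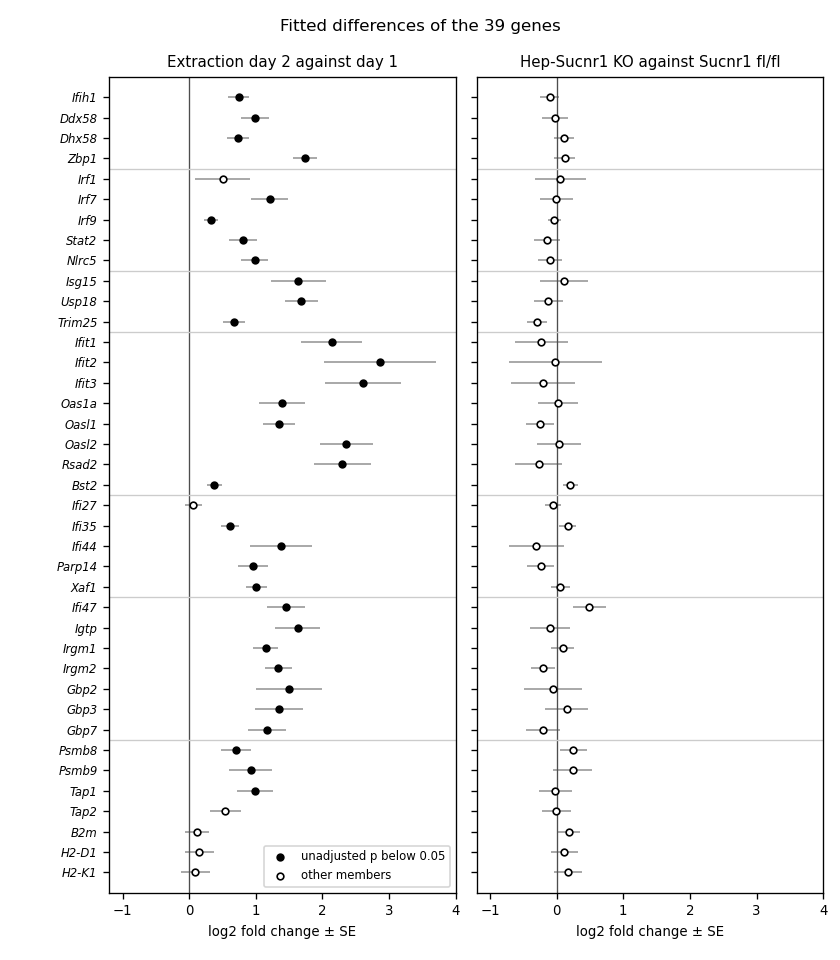
Fitted log2 fold change ± SE of each of the 39 genes for extraction day 2 against day 1 (left) and Hep-Sucnr1 KO against Sucnr1 fl/fl (right), where filled points have an unadjusted p below 0.05. All 39 genes lay above 0 for extraction day, 33 of them filled, while the genotype differences lay on both sides of 0 with none filled.

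The difference that these genes did show was between extraction days. All 39 were higher on day 2, with a median log2 fold change of 1.01 compared with 0.02 over all genes. In edgeR's quasi-likelihood test with genotype in the model, 33 of the 39 had an unadjusted p below 0.05 and were higher on day 2, compared with 5.16% of all genes. None passed an FDR of 0.05 in edgeR (0 of the 39, and 0% of all genes), and the smallest FDR was 0.192, that of Zbp1. The Wald test of DESeq2 with the same model gave an adjusted p below 0.05 for 24 of the 39, compared with 1.35% of all genes called higher on day 2. Without any model, the 4 day 2 libraries all lay above both day 1 libraries for 32 of the 39 and for 8.51% of all genes. Without Hep-Sucnr1 KO replicate 3, the median was 0.60, 35 of the 39 remained higher on day 2, 18 had an unadjusted p below 0.05 in edgeR and were higher, compared with 1.87% of all genes, and DESeq2 called 6 (Zbp1, Oasl2, Usp18, Irgm2, Rsad2 and Ifit3), compared with 0.185% of all genes. Sucnr1 fl/fl replicate 1 is then the only day 1 library, and with genotype in the model it is set against the day 2 controls. The p values and calls of that fit therefore have no replicate check on day 1. Without Sucnr1 fl/fl replicate 2, edgeR called 7 of the 39 at an FDR below 0.05, compared with 0.192% of all genes. That library was the lowest of day 2 for 38 of the 39, so leaving it out widens the day difference. When any other day 2 library was left out, edgeR called none of the 39. Since bulk RNA was measured, fewer cells of a type and less RNA per cell cannot be told apart.

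The 8 antiviral effectors differed most between the days, with a median log2 fold change of 2.22, and all 8 had an unadjusted p below 0.05. Rsad2 stood at 401, 848 and 1882 CPM in the controls and at 195, 1591 and 1345 CPM in the knockout. Both day 1 libraries were below every day 2 library, and Sucnr1 fl/fl replicate 2 was the lowest of day 2. The log2 fold change of Rsad2 between the days was 2.30 (SE 0.43, edgeR FDR 0.327, DESeq2 adjusted p 2.09e-07). The Ifit genes, neighbours on chromosome 19 that encode proteins binding foreign RNA, are given here because of their large values and were chosen after these were seen. Ifit1 (chr19:34640871-34650009) stood at 242, 426 and 894 CPM in the controls and at 101.7, 701 and 882 CPM in the knockout. Ifit2 (chr19:34550694-34576419) stood at 35.0, 45.7 and 193 CPM in the controls and at 9.65, 171 and 238 CPM in the knockout. Ifit3 (chr19:34583531-34588731), which may share reads with a near-identical copy, stood at 139.8, 283 and 641 CPM in the controls and at 47.0, 587 and 663 CPM in the knockout. In all 3 genes the order was the same, with Hep-Sucnr1 KO replicate 3 lowest, then Sucnr1 fl/fl replicate 1, then Sucnr1 fl/fl replicate 2, and the last 3 libraries well above. Their log2 fold changes between the days were 2.14 (SE 0.46), 2.86 (SE 0.84) and 2.61 (SE 0.57), and DESeq2 called Ifit3 (adjusted p 0.0141) but not Ifit1 (0.0667) or Ifit2 (0.117). The oligoadenylate synthetase genes Oas1a, Oasl1 and Oasl2 had log2 fold changes of 1.39, 1.35 and 2.36. Bst2, which encodes tetherin and tethers budding virions, moved least, from 84.8 and 99.5 CPM on day 1 to between 105 and 130.0 CPM on day 2, a log2 fold change of 0.38 (SE 0.12).

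Isg15 and Usp18, which removes ISG15 from proteins and damps signalling at the type I interferon receptor, came after the effectors. Isg15 (chr4:156199424-156200818) stood at 130.0, 177 and 444 CPM in the controls and at 96.3, 334 and 471 CPM in the knockout. The day 2 libraries were all above the day 1 libraries, although Sucnr1 fl/fl replicate 2 was closer to day 1 than to the rest of day 2. The log2 fold change between the days was 1.64 (SE 0.41) for Isg15 and 1.68 (SE 0.25) for Usp18, and DESeq2 called both, with adjusted p values of 0.00241 and 1.09e-07. Trim25 followed with 0.67 (SE 0.16, DESeq2 adjusted p 0.0409).

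All 4 sensors had an unadjusted p below 0.05 for extraction day, and DESeq2 called all 4. Zbp1, a sensor of Z-form nucleic acids that can trigger necroptosis, had the smallest p of the 39 genes. It stood at 18.8, 46.5 and 59.7 CPM in the controls and at 16.2, 59.5 and 69.7 CPM in the knockout, and every day 2 library lay well above both day 1 libraries. The log2 fold change was 1.74 (SE 0.19, edgeR FDR 0.192, DESeq2 adjusted p 4.15e-12). The RIG-I-like receptors of cytosolic RNA differed less between the days, with log2 fold changes of 0.99 for Ddx58 (RIG-I), 0.74 for Ifih1 (MDA5) and 0.73 for Dhx58 (LGP2).

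Of the 5 transcription factors, 4 had an unadjusted p below 0.05 and 2, Irf7 and Nlrc5, were called by DESeq2. Irf7, which amplifies type I interferon production, had a log2 fold change of 1.21 (SE 0.28) between the days, and Nlrc5, the transactivator of MHC class I genes, 0.98 (SE 0.20). Stat2 and Irf9, whose products bind together at the ISRE, had 0.81 (SE 0.21) and 0.33 (SE 0.11). Stat2 stood at 68.3, 82.0 and 107 CPM in the controls and at 44.5, 90.6 and 111 CPM in the knockout, with the days apart and the genotypes overlapping. Irf1 stood apart from the other factors. It stood at 204, 135 and 210.1 CPM in the controls and at 97.3, 207 and 313 CPM in the knockout, and here the day 1 control lay within the range of the day 2 libraries. Its log2 fold change between the days was 0.51 (SE 0.41, edgeR FDR 0.914), and −0.28 without Hep-Sucnr1 KO replicate 3. The window of Irf1 held a GAS core and no ISRE core, but so did those of Ifit2, Ifi35 and Psmb8, with log2 fold changes of 2.86, 0.62 and 0.70.

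**Figure D3:**
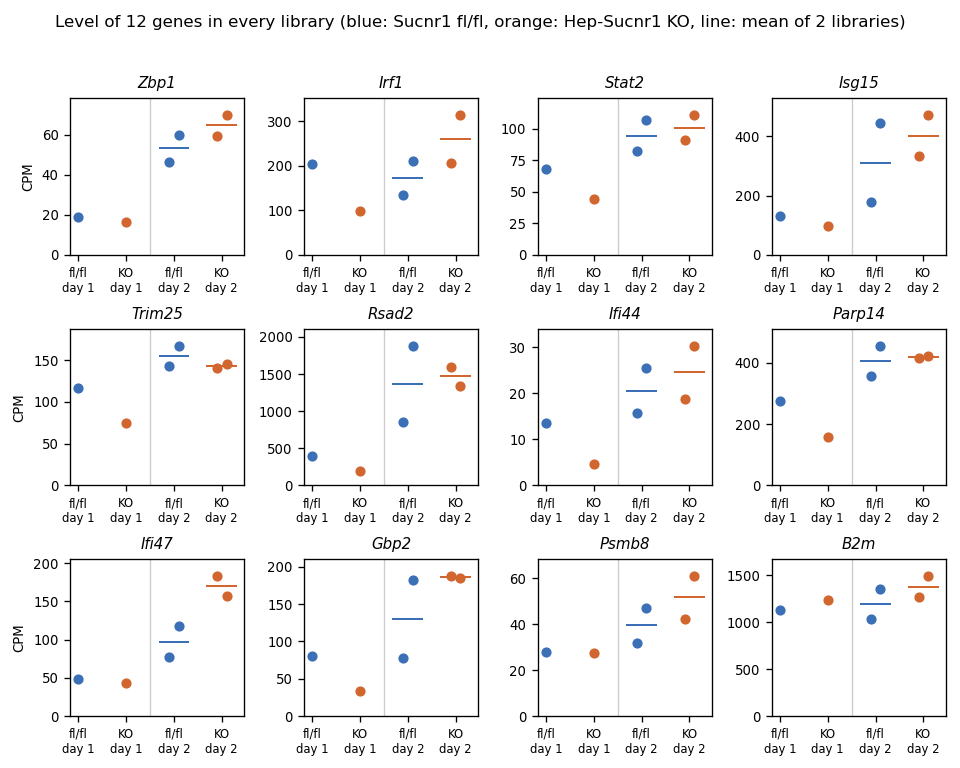
CPM of 12 genes, the most abundant or with the largest genotype difference of their role group, by genotype and extraction day, where each point is 1 library, lines mark the mean of 2 libraries and every axis starts at 0. Zbp1 and Rsad2 separated the days, while B2m was level across the 6 libraries and Irf1 in the day 1 control lay within its day 2 range.

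The 7 interferon-induced GTPases, of the IRG and GBP families, moved together between the days, within a narrow range of log2 fold changes from 1.15 to 1.63, and all 7 had an unadjusted p below 0.05. Ifi47 had 1.45 (SE 0.28, DESeq2 adjusted p 0.000158). Igtp and Irgm2, which overlap on the same strand of chromosome 11 in the annotation so that some read pairs cannot be assigned to one of them, had 1.63 and 1.34. Gbp2, a guanylate-binding protein, stood at 80.0, 78.4 and 182 CPM in the controls and at 33.5, 187 and 185 CPM in the knockout. Its days overlapped, because Sucnr1 fl/fl replicate 2 of day 2 was at the level of replicate 1 of day 1, and the day 1 knockout was the lowest library. Gbp2 had a log2 fold change of 1.49 (SE 0.50) between the days and was the only GTPase of the 7 that DESeq2 did not call (adjusted p 0.51).

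The other interferon-induced genes were mixed. Ifi44 stood at 13.6, 15.6 and 25.4 CPM in the controls and at 4.59, 18.7 and 30.3 CPM in the knockout, with a log2 fold change between the days of 1.38 (SE 0.47, DESeq2 adjusted p 0.0716). Parp14, a mono-ADP-ribosyltransferase, stood at 277, 356 and 456 CPM in the controls and at 158, 415 and 421 CPM in the knockout, with 0.96 (SE 0.23, DESeq2 adjusted p 0.0112). Both were lowest in Hep-Sucnr1 KO replicate 3 and next lowest in Sucnr1 fl/fl replicate 1. Xaf1 and Ifi35 had log2 fold changes of 1.01 and 0.62 and were called by DESeq2. Ifi27 was level, between 45.6 and 56.5 CPM in the 6 libraries, with a log2 fold change of 0.06 (SE 0.12).

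The MHC class I pathway split into its peptide supply and its presenting chains. The immunoproteasome subunits Psmb8 and Psmb9 and the peptide transporter genes Tap1 and Tap2, which lie side by side between chr17:34181987 and 34216321, had log2 fold changes of 0.70, 0.93, 0.99 and 0.54 between the days, with an unadjusted p below 0.05 for all but Tap2 (p 0.057 in edgeR's quasi-likelihood test), and DESeq2 called Tap1 alone. Psmb8 stood at 27.9, 31.8 and 47.3 CPM in the controls and at 27.5, 42.5 and 61.0 CPM in the knockout. Its day 1 libraries were nearly equal and below every day 2 library. The presenting chains did not differ between the days beyond their spread. B2m stood at 1129.7, 1029 and 1351 CPM in the controls and at 1236, 1268 and 1489.7 CPM in the knockout, a log2 fold change of 0.12 (SE 0.18) between the days. H2-D1 and H2-K1, whose reads may be shared among near-identical class I genes, had 0.15 (SE 0.22) and 0.09 (SE 0.22). For these 3 genes the lowest library was Sucnr1 fl/fl replicate 2, a day 2 library.

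Among the genes with a RefSeq window, the 16 with an ISRE core had a median log2 fold change between the days of 1.34, from 0.12 (B2m) to 2.61 (Ifit3), and the 16 without it had 0.96, from 0.09 (H2-K1) to 2.86 (Ifit2). The 9 with a GAS core had 1.17 and the 23 without had 1.15. The ranges with and without either core overlapped.

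The separation by day was not uniform among the libraries. A score for each library, the median over the 39 genes of log2 CPM minus the mean of the 6 libraries, was −0.44, −0.01 and 0.48 in the controls and −0.96, 0.40 and 0.52 in the knockout. Hep-Sucnr1 KO replicate 3 was the lowest library for 33 of the 39 genes, compared with 16.3% of all genes. Among the 4 day 2 libraries, Sucnr1 fl/fl replicate 2 was the lowest for 38 of the 39, compared with 33.1% of all genes. Within the controls alone, the mean of day 2 was above replicate 1 for 36 of the 39, with a median log2 ratio of 0.64 compared with 0.04 over all genes. Within the knockout alone, the mean of day 2 was above replicate 3 for all 39, with a median log2 ratio of 1.41 compared with 0.00 over all genes. Day 1 held 1 library of each genotype, so these ratios within a genotype have no replicate check.

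Because the day 1 knockout library was lower than the day 1 control, the ratio of the genotypes changed sign between the days. On day 1 the knockout was below the control for 36 of the 39 genes, with a median log2 ratio of −0.52 compared with 0.01 over all genes. On day 2 the mean of the knockout was above that of the controls for 36 of the 39, with a median log2 ratio of 0.22 compared with 0.01 over all genes. The difference between these ratios was tested as the interaction of day and genotype in edgeR, and 11 of the 39 had an unadjusted p below 0.05, all with the ratio greater on day 2, compared with 2.68% of all genes. None had an FDR below 0.05 (the smallest was 0.9997), and the interaction rests on 2 residual degrees of freedom and on 1 library of each genotype on day 1. These 11 were the GTPase genes Igtp, Irgm2, Gbp2, Gbp3 and Gbp7, the transcription factor genes Irf1, Irf7 and Nlrc5, and Ifit3, Ifi44 and Parp14. Igtp had the smallest p (0.0070, interaction 1.40, SE 0.35), with log2 ratios of −1.05 on day 1 and 0.35 on day 2, and Irf1 had −1.07 and 0.59. Markers of several other cell types moved with these ratios, those of neutrophils and cholangiocytes did not, and the part of these cells was not tested. Of 8 sinusoidal endothelial genes, 6 had an unadjusted p below 0.05 for the interaction in edgeR, compared with 2.68% of all genes (median interaction 1.41, FDR of at least 0.9997). Their median log2 ratio of knockout to control was −1.41 on day 1 and 0.10 on day 2. Of 10 Kupffer cell and macrophage genes, 4 had such a p (median interaction 2.48), with median log2 ratios of −2.26 and 0.23. The medians were 1.34 on day 1 and 0.55 on day 2 for the 2 neutrophil genes tested, and 0.04 on both days for the 4 cholangiocyte genes tested.

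**Figure D4:**
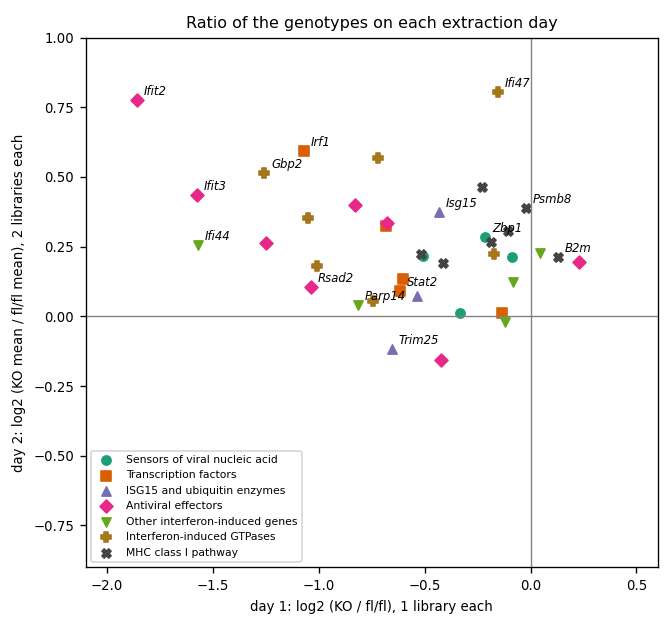
Log2 ratio of Hep-Sucnr1 KO to Sucnr1 fl/fl for each of the 39 genes on day 1 (horizontal axis, 1 library of each genotype) and day 2 (vertical axis, means of 2 libraries). Most genes lay in the upper left, below 0 on day 1 and above 0 on day 2, with Ifit2 farthest to the left at −1.86.

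Markers of other liver cells were measured in the same libraries. The 7 hepatocyte genes summed to between 62062 and 97815 CPM, with Alb the most abundant, and did not follow the days. The 10 Kupffer cell and macrophage genes, all of them detected in every library, summed to 42.1, 37.9 and 139 CPM in the controls and to 8.33, 121 and 85.3 CPM in the knockout. All 10 were higher on day 2 and lowest in Hep-Sucnr1 KO replicate 3, with a median log2 fold change of 2.07 between the days. C1qb, a complement gene of macrophages and the most abundant of the 10 per length, stood at 4.68, 5.71 and 19.1 CPM in the controls and at 1.39, 16.9 and 9.90 CPM in the knockout. Hep-Sucnr1 KO replicate 3 was thus lowest for these genes as for most of the 39, and the part of these cells in the difference between days was not tested. From Sucnr1 fl/fl replicate 1 to replicate 2, 3 of the 10 Kupffer cell genes were higher, with a median log2 ratio of −0.14. Between the same libraries, 32 of the 39 genes were higher, with a median log2 ratio of 0.39, and 51.1% of all genes were higher. Of the 7 MHC class I genes among the 39, 3 were higher (median −0.05). The 3 dendritic and 2 neutrophil genes tested were all higher there, at low counts (medians 0.79 and 0.81), as was the T cell gene Cd8a (0.53). Higher among the other markers tested were 1 of 4 B cell, 2 of 7 hepatocyte, 0 of 8 sinusoidal endothelial, 0 of 3 stellate and 0 of 4 cholangiocyte genes. From replicate 1 to replicate 3 of the controls, 10 of the 10 Kupffer cell genes (median 1.69), 39 of the 39 genes (median 0.97) and 55.6% of all genes were higher. Each of these ratios sets 1 library against another and has no replicate check. The 8 genes of the MHC class II pathway, which professional antigen-presenting cells express, summed to 38.4, 37.0 and 128 CPM in the controls and to 21.8, 119 and 112 CPM in the knockout. Cd74, the invariant chain gene, stood at 11.3, 15.2 and 50.9 CPM in the controls and at 4.81, 49.9 and 44.1 CPM in the knockout, with a log2 fold change of 2.31 (SE 0.60) between the days.

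The markers of other cell types were read in the same way. The 8 sinusoidal endothelial genes summed to between 50.7 and 63.1 CPM on day 2 and to 94.3 and 32.9 CPM on day 1, and 1 of 8, Cdh5, was higher on day 2. The 8 T and NK cell genes summed to at most 1.36 CPM, with 6 of them at 0 in at least 1 library, the 5 dendritic cell genes to at most 2.16 CPM, the 5 neutrophil genes to at most 2.80 CPM and the 4 B cell genes to at most 4.95 CPM. All 3 dendritic cell genes, both neutrophil genes and all 4 B cell genes that passed the filter were higher on day 2, at no more than 2.11 CPM per gene (Cd79a). Over all genes tested, 8046 of 15105 were higher on day 2. The 6 stellate cell genes summed to between 3.43 and 20.7 CPM. The 3 of them that passed the filter were all lower on day 2, with a median log2 fold change of −1.17. Of these, 2, Dcn and Reln, had an unadjusted p below 0.05 in edgeR (0.040 and 0.027), compared with 352 of all 15105 genes in that direction. The part of these cells was not tested. In the same libraries, the 5 cholangiocyte genes summed to between 350.2 and 650.4 CPM, nearly all of it from Spp1 and Sox9. The others, Krt19, Krt7 and Epcam, stood at no more than 0.89, 0.33 and 2.61 CPM.

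**Figure D5:**
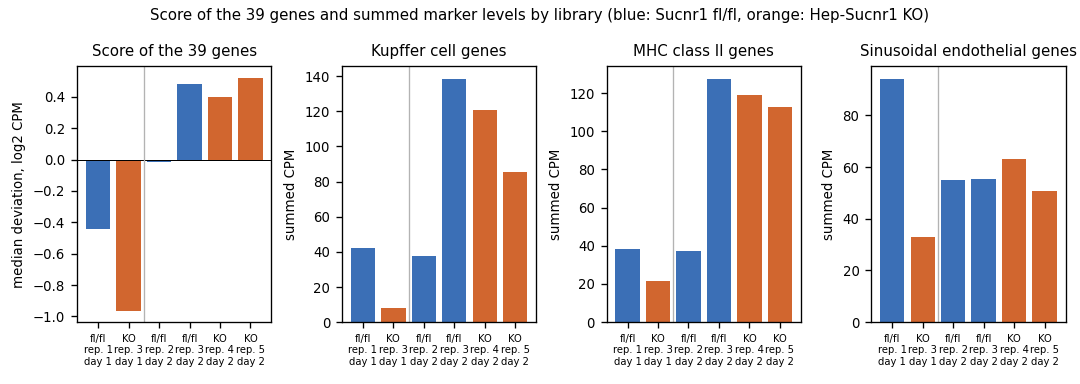
Score of the 39 genes (median deviation of log2 CPM) and summed CPM of the Kupffer cell, MHC class II and sinusoidal endothelial genes in each library, with 1 bar per library and day 1 left of the grey line. Hep-Sucnr1 KO replicate 3 was lowest in all 4 panels, and the Kupffer cell and MHC class II sums of Sucnr1 fl/fl replicate 2 were at the level of replicate 1.

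Further genes of the pathway, in 6 lists by role, were read in the same way (lists chosen by role, 93 genes, of which 84 passed the filter). The ligands were at or near the limit of detection. Of 9 interferon genes, 5 were listed and none passed the filter on low counts. Ifnb1 stood at 0.156, 0.120 and 0.132 CPM in the controls and at 0.0950, 0.0591 and 0.0607 CPM in the knockout, which is 2 to 6 counts per library, and Ifng at 0 in 4 of 6 libraries. The receptors, kinases and their inhibitors were detected and mostly level between the days, with a median log2 fold change of 0.05 over 12 genes. Socs1, an inhibitor of JAK kinases that is itself induced by interferon, had a log2 fold change of 0.76 (SE 0.21) between the days, with an unadjusted p of 0.010 in edgeR's quasi-likelihood test.

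Ifnar1, which encodes a chain of the type I interferon receptor, had the smallest unadjusted p for genotype in these lists. It stood at 30.9, 26.6 and 14.2 CPM in the controls and at 11.7, 10.7 and 12.6 CPM in the knockout. The genotypes did not overlap, although Sucnr1 fl/fl replicate 3 was closer to the knockout than to the other controls, which form the separate index series. The log2 fold change was −1.01 (SE 0.26, unadjusted p 0.0060, FDR 0.998 in edgeR). With index series as a further term, chosen for this gene after its values were seen, it was −0.32 (SE 0.20, unadjusted p 0.17 in edgeR). Its partner Ifnar2 was level, between 32.5 and 38.6 CPM, with a log2 fold change of 0.01 (SE 0.11). Ticam1, the adaptor of TLR3, also did not overlap, at 12.02, 13.1 and 11.3 CPM in the controls and 11.1, 10.2 and 8.65 CPM in the knockout (log2 fold change −0.29, SE 0.14). Psme1, a proteasome activator subunit, was the only gene of the lists higher in the knockout at an unadjusted p below 0.05 (log2 fold change 0.33, SE 0.14, p 0.048 in edgeR, FDR 0.998). It stood at 53.1, 50.4 and 58.7 CPM in the controls and at 58.5, 65.2 and 81.7 CPM in the knockout, with the genotypes overlapping. With index series as a further term the log2 fold changes of Psme1 and Ticam1 were 0.27 (SE 0.23, p 0.28 in edgeR) and −0.21 (SE 0.23, p 0.40 in edgeR).

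Interferon-induced genes outside the 39 behaved like them between the days. All 30, also listed with earlier results of these data known, were higher on day 2, with a median log2 fold change of 1.25. Over all genes tested, 8046 of 15105 were higher. In edgeR, 25 of the 30 had an unadjusted p below 0.05, compared with 5.16% of all genes. DESeq2 called 18 of the 30, compared with 1.35% of all genes. Mx1, an antiviral GTPase, stood at 3.30, 10.1 and 24.8 CPM in the controls and at 1.58, 20.3 and 26.4 CPM in the knockout, with a log2 fold change of 3.04 (SE 0.51). Cxcl10, a chemokine induced by interferon, stood at 166, 269 and 436 CPM in the controls and at 122, 555 and 451 CPM in the knockout, with 1.54 (SE 0.31). For genotype, 16 of the 30 were higher in the knockout and 0 had an unadjusted p below 0.05 in edgeR, compared with 3.73% of all genes.

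The rest of the MHC class I pathway moved little between the days. Of 20 genes, 15 were higher on day 2, compared with 8046 of all 15105, with a median log2 fold change of 0.11. In edgeR, 3, Tapbp, Tapbpl and Psmb10, had an unadjusted p below 0.05, compared with 5.16% of all genes. H2-Q10, a class I gene that hepatocytes secrete as a soluble product, stood at 1893, 1451 and 1899.8 CPM in the controls and at 1887, 1679 and 2086 CPM in the knockout, with a log2 fold change of −0.09 (SE 0.19) between the days. In the induction pathway, from the nucleic acid sensors to the IRF factors, 13 of 14 genes were higher on day 2. Of these, 6 had an unadjusted p below 0.05 in edgeR, compared with 5.16% of all genes. Tlr3 and Tlr7, endosomal RNA sensors, had log2 fold changes of 1.15 (SE 0.22) and 2.38 (SE 0.64) and were called by DESeq2, while the adaptor Mavs (0.13) and the factor Irf3 (0.15) were level.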

How the data were processed

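Hepatocyte RNA of 6 mice, 3 controls and 3 Hep-Sucnr1 KO, was analysed, grouped by genotype and extraction day from the labels. The authors trimmed reads with Trim Galore 0.6.7, aligned them to GRCm38 with STAR 2.7.10a, counted read pairs per gene by strand with featureCounts on Ensembl release 102, and deposited raw counts for 25184 genes (versions per the submitters' processing notes). The setting for pairs that match several genes was not given in the sources used here, so near-identical or overlapping genes (Ifit3, Oas1a, the H2 genes, the Gbp genes, Tgtp1 and Tgtp2, Igtp and Irgm2) are uncertain.

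Library totals were 30504248 to 38770694 counts, and each of the 39 genes had at least 116 counts in every library; marker genes with few counts are less precise. Nothing says that the libraries were other than 1 per mouse. Genes with a mean DESeq2-normalized count above 5 were kept (15105). CPM and tests used edgeR 4.0.16 with TMM factors (R 4.3.3): a quasi-likelihood model of day and genotype, and a further model with their interaction, with p-values adjusted by Benjamini-Hochberg across the 15105 genes and a threshold of 0.05. The SE is the log2 fold change divided by the square root of the F statistic. The paper's DESeq2 was run as an alternative (1.42.0, default settings). Exact permutation tests of 3 against 3 libraries cannot give a p below 0.1 and are not quoted. TPM and positions use GENCODE M21 exons (GRCm38), and promoter windows are those of RefSeq (GRCm38.p6). Scores use log2 CPM with a prior count of 2. The test was also run on simulated counts, and no result given here rests on that run. Tables were made with Python 3.11, pandas 2.3.3 and SciPy 1.17.1.

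The 39 genes and all lists were chosen with earlier results of these data known. By rule, values in every library are given for the most abundant gene per length and the gene with the largest genotype difference in each of 7 role groups (12 genes), for genes with an unadjusted p below 0.05 or non-overlapping genotypes, and, of the other pathway lists, for such genes (both for genotype) and Mx1, Cxcl10, H2-Q10 and Cd74, and 1 further gene named by the rule is not reported here. Sting1 and Tf were matched as Tmem173 and Trf. Alternatives were other normalizations and filters, no covariate, index series, day 2 alone, DESeq2 and leaving out each library.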

Additional observations from a re-analysis of the deposited data

How the results depend on the processing

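No paired analysis was run, because the labels do not pair mice across the genotypes. The shared replicate number, 3, is a day 2 library in the controls and a day 1 library in the knockout. Depth did not limit the 39 genes, but 3 libraries per genotype and 1 of each on day 1 did. Leaving out either day 1 library leaves 1 library on that day. The p values and calls for extraction day then have no replicate check on day 1. For extraction day, the 39 genes stayed higher on day 2 for at least 35 of 39 in every alternative, and how many passed a threshold depended on the test. Over all genes, an FDR below 0.05 was reached by 225 with DESeq2, 122 without a filter on low counts, 46 with DESeq2 without Hep-Sucnr1 KO replicate 3, and 0 to 29 in edgeR when 1 library was left out. Of the 39 genes, the same settings gave 24, 20, 6 and 0 to 7. Before adjustment, a p below 0.05 was found for 20 of the 39 with DESeq2 without Hep-Sucnr1 KO replicate 3, an alternative chosen after seeing the data (3.61% of all genes), and for 18 to 34 when 1 library was left out (3.79% to 9.89% of all genes).

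For genotype, DESeq2 called 7 of all genes, and 3 without Hep-Sucnr1 KO replicate 3, none of them among the 39. Before adjustment, a p below 0.05 was found for 1 of the 39 with library size alone, without a filter, on day 2 alone and with DESeq2 without Hep-Sucnr1 KO replicate 3, each with 1.45% to 3.16% of all genes, and for 0 to 4 when 1 library was left out, with 2.06% to 5.49% of all genes. The number of the 39 higher in the knockout was 27 with no covariate, 7 with index series, 36 on day 2 alone, 34 with DESeq2 without Hep-Sucnr1 KO replicate 3, and 5 to 36 when 1 library was left out. Single genotype differences changed sign, and the cause was not tested. For genotype, day 2 alone and leaving out either day 1 library rest on the same day 2 libraries. On day 2 alone the log2 fold change was 0.086 for Stat2, 0.10 for Rsad2, 0.25 for Ifi44, 0.034 for Parp14 and 0.51 for Gbp2, and with DESeq2 without Hep-Sucnr1 KO replicate 3 it was 0.080, 0.097, 0.25, 0.029 and 0.51. With no covariate it was 0.00032 for Rsad2 and 0.25 for Gbp2, and with index series −0.34 for Isg15 and −0.011 for B2m. When 1 library was left out, the genotype difference ran from −0.32 to 0.093 for Stat2, −0.27 to 0.47 for Isg15, −0.65 to 0.11 for Rsad2, −0.69 to 0.26 for Ifi44, −0.43 to 0.041 for Parp14, −0.53 to 0.52 for Gbp2, −0.023 to 0.28 for Zbp1 and −0.30 to 0.59 for Irf1. The day difference of Irf1 was −0.28 with DESeq2 without Hep-Sucnr1 KO replicate 3 and −0.28 to 1.42 when 1 library was left out. Of the other values of the 12 genes named by the rule, 151 for extraction day and 150 for genotype kept their direction and side of the threshold, and 15 for extraction day passed it in an alternative.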
